A study of Mus musculus with 36 samples.

Results

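The genes described here are markers of the hippocampal subfields and of the thalamus, measured in single hippocampal slices of mice. They were listed by name, with earlier results of these data known. Of 31 listed genes, 8 mark the dentate gyrus, 4 CA3, 4 CA2, 4 CA1, 2 the subiculum and 7 the thalamus, and the other 2, Etv1 and Cpne9, were assigned to no region. An identifier was found for 30 of them among 55421 genes of the count table. The filter on low counts kept 29 of them among 19478 genes tested. Gbx2 did not pass that filter, and no value is given for Calb2os, for which no identifier was found.

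Wild-type (WT) mice were C57BL/6. T41B mice carried the Thy1-hAPPLond/Swe transgene of Line 41, human APP with the London and Swedish mutations, driven in neurons by the Thy1 cassette, as a model of Alzheimer's amyloid pathology. Mice of both genotypes were given vehicle (VEH) or BD10-2 (PTX-BD10-2 in the sample labels), which partially activates TrkB and TrkC, the receptors for BDNF and NT-3, by oral gavage over 3 months from 13 to 16 months of age. Slices cut from the right hippocampus then received theta-burst stimulation (TBS), in 3 rounds of 10 bursts that were 200 ms apart, each burst with 4 stimuli at 100 Hz, or a sham procedure that lasted as long (sham), and were then flash frozen. The 8 groups were WT VEH sham and WT VEH TBS with 4 mice each, WT BD10-2 sham and WT BD10-2 TBS with 3 each, T41B VEH sham and T41B VEH TBS with 4 each, and T41B BD10-2 sham and T41B BD10-2 TBS with 5 each. Both slices were sequenced for 14 of 18 mice. The tissue of all 8 groups, sham included, had been sliced and held for electrophysiology.

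Each hippocampal subfield has principal neurons with a transcription programme of their own. Granule cells of the dentate gyrus depend on the transcription factor Prox1, CA1 pyramidal cells are rich in the endoplasmic reticulum protein Wfs1, and CA2 pyramidal cells carry the signalling regulators Rgs14 and Pcp4. The thalamus lies beneath the hippocampus, and its relay neurons use the vesicular glutamate transporter Slc17a6 (VGLUT2) and are patterned by Gbx2, Tcf7l2 and Lef1. A slice holds these regions in proportions set by where and how it was cut, so the summed RNA of a slice reads both the share of each region and the expression per cell. In these bulk samples fewer cells of a type and less RNA per cell cannot be told apart.

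The 36 libraries held 11597555 to 28125842 expected counts each, with a median of 18082415, and 1.995% to 5.396% of the counts were mitochondrial. Levels are given in CPM, the counts scaled to library size after TMM normalisation. Thy1, whose promoter drives the transgene, checked the genotype labels: WT libraries held 253 to 403 CPM of it, and T41B libraries 918 to 2500 CPM. In 4 cases 2 libraries share the labels of mouse and stimulation, and the counts of such libraries were added, which gave 32 samples. The first stimulated library of Mouse1592 had 918 CPM of Thy1, the lowest of a T41B library, and the second had 1940 CPM. Other T41B libraries lay near the first of these, with 1080 and 1020 CPM in the sham pair of Mouse1557 and 1030 and 1050 CPM in the slices of Mouse1510. The labels name 8 batches, in each of which all mice had the same treatment.

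Promoter sequences are shown for 3 dentate genes whose levels moved together between slices (Prox1, C1ql2 and Lct) and for the 3 members that differed one way between stimulated and sham slices in at least 13 of 14 mice (Nts, higher, and Etv1 and Lef1, lower). They are RefSeq windows of GRCm38.p6 from 250 bases before to 50 after a transcript start, given 5′ to 3′ on the gene's strand. Prox1 and Etv1 have 2 windows each and Lef1 has 4. The one shown was picked for its match. The others (for Prox1 chr1:190169466-190169765, minus strand, for Etv1 chr12:38779832-38780131 and for Lef1 chr3:131110047-131110346, chr3:131110073-131110372 and chr3:131156044-131156343, plus strand) hold none of the 4 motifs searched. Capitals mark CAGATG or its complement CATCTG, the E-box form bound by neuronal basic helix-loop-helix factors, and TGACG or its complement CGTCA, which is part of the cAMP response element.
Prox1, chr1:190170778-190171077, minus strand: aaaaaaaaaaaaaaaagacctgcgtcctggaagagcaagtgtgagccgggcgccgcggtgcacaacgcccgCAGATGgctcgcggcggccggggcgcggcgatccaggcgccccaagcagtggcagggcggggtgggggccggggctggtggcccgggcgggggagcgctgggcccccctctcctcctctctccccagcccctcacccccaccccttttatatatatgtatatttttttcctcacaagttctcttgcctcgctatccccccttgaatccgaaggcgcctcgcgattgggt
C1ql2, chr1:120340332-120340631, plus strand: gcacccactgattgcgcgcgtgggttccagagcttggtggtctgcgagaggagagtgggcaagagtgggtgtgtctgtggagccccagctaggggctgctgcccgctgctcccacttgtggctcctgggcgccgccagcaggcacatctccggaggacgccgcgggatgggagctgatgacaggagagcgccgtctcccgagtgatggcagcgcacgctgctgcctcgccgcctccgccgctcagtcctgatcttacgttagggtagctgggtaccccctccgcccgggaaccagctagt
Lct, chr1:128328269-128328568, minus strand: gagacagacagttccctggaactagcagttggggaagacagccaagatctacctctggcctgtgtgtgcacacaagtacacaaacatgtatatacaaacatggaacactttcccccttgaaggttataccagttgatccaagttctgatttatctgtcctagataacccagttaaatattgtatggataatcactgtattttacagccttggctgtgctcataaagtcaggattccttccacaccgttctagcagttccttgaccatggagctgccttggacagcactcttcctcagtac
Nts, chr10:102490369-102490668, minus strand: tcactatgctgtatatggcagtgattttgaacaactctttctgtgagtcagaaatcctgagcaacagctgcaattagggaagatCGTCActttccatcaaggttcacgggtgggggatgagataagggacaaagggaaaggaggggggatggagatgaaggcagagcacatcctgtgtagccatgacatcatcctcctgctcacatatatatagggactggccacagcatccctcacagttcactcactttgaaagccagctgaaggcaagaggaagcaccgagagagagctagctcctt
Etv1, chr12:38783461-38783760, plus strand: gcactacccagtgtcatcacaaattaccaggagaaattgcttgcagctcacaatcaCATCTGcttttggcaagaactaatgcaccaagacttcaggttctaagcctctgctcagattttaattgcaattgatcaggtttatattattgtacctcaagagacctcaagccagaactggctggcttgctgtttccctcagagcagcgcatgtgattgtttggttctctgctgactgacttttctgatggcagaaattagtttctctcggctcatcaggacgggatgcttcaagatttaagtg
Lef1, chr3:131112541-131112840, plus strand: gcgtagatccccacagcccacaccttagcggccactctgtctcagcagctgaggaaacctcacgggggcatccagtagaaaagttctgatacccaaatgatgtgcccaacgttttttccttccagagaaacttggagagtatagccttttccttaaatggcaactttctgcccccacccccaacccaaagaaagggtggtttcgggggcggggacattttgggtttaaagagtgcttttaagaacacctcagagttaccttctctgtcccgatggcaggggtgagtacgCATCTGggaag

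Windows were found for 26 members, 36 windows in all, and both strands of each were searched. CAGATG was in 7 of the 36 windows, those of Cpne9, Etv1, Iyd, Lef1, Prox1, Slc17a6 and Wfs1, and in 17.2% of all 32851 RefSeq windows. TGACG was in 7 of the 36, those of Cpne4, Fibcd1, Iyd, Nts, Slc17a6, Tcf7l2 and Trpc6, and in 20.8% of all windows. The full cAMP response element TGACGTCA, which contains TGACG, was in 0 member windows and 1.79% of all windows, and the TCF/LEF motif CTTTGAT in 0 member windows and 3.73% of all. The 2 shorter motifs were chosen after the longer ones had given no match. A match describes letters in a window and not a bound site.

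The levels of the subfield markers spread widely within most lists. Per kilobase of exon, the median level over the 32 samples was 32.7 CPM for Mpped1, 26.5 for Wfs1, 23.9 for Fibcd1 and 20.3 for Pou3f1, the 4 CA1 genes. It was 26.1 for C1ql2, a synaptic organiser secreted by granule cells, and 15.3 for Prox1. Among CA2 genes it was 24 for Pcp4, a calmodulin-binding peptide, and 14.9 for Rgs14, and among CA3 genes 16.2 for Bok, a relative of the BCL2 apoptosis proteins, and 10.5 for the calcium-binding protein Cpne4. The lower members of these lists had 3.52 for the cell adhesion protein Amigo2 of CA2 and 1.34 for Iyd of CA3. The 2 subiculum genes had 4.4 (Fn1) and 2.06 (Nts). The lowest per kilobase of the subfield genes were the extracellular matrix protein Coch with 0.226 and Tdo2, a tryptophan-degrading enzyme, with 0.691. Their medians not scaled to length were 0.678 and 2.68 CPM.

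The thalamic genes ranged from undetected to the level of the subiculum genes and above. Gbx2, which patterns the developing thalamus, was listed at 0 in 17 of 32 samples and reached at most 0.126 CPM. The 5 thalamic members that passed the filter had medians per kilobase of 6.08 CPM for Rora, 4.38 for Prkcd, 2.24 for Slc17a6, 1.35 for Tcf7l2 and 0.338 for Lef1. These genes are expressed in cells outside the thalamus as well. They are called the thalamic list by the name they were chosen under, and no amount of thalamic tissue is read from them. Of 9 further thalamic genes, Plekhg1 had a median per kilobase of 4.75 CPM, Ntng1 4.24, Rgs16 3.9, Ramp3 1.5, Calb2 1.39, Lhx9 0.914, Synpo2 0.821 and Tnnt1 0.268, and Shox2 was at 0 in 26 of 32 samples. Of 5 medial habenula genes, Nwd2 had 3.07, Tac2 0.538, Gpr151 0.294, Chrnb4 0.0219 and Pou4f1 0.0182.

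The members differed widely in how far they ranged between slices. The highest sample over the lowest was 1.58 for Rora, 1.75 for Tcf7l2 and 1.78 for Mpped1, the 3 steadiest members. It was 4.24 for C1ql2, 4.48 for the desmosome protein Dsp and 8.22 for Lct, the lactase gene that marks granule cells in mice. The widest ranges were 31.2 for Slc17a6 and 27.2 for Nts.

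The dentate genes moved together from slice to slice. In the 4 WT VEH sham samples Prox1 stood at 96.1, 161, 116 and 88.2 CPM, C1ql2 at 48.9, 82.6, 52.4 and 48.6 CPM and Dsp at 39.5, 73.7, 55.9 and 33.4 CPM, each for Mouse1509, Mouse1513, Mouse1522 and Mouse1524. Mouse1513 was the highest of the 4 for all 3 genes. In the 4 T41B VEH sham samples Prox1 stood at 133, 202, 171 and 111 CPM and Lct at 46.7, 134, 46.8 and 31 CPM for Mouse1510, Mouse1551, Mouse1553 and Mouse1579. Mouse1551 was the highest for both. In the 3 WT BD10-2 sham samples Prox1 stood at 139, 143 and 75.7 CPM and Lct at 71.6, 50 and 16.3 CPM for Mouse1565, Mouse1571 and Mouse1590, and Mouse1590 was the lowest for both.

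**Figure D1:**
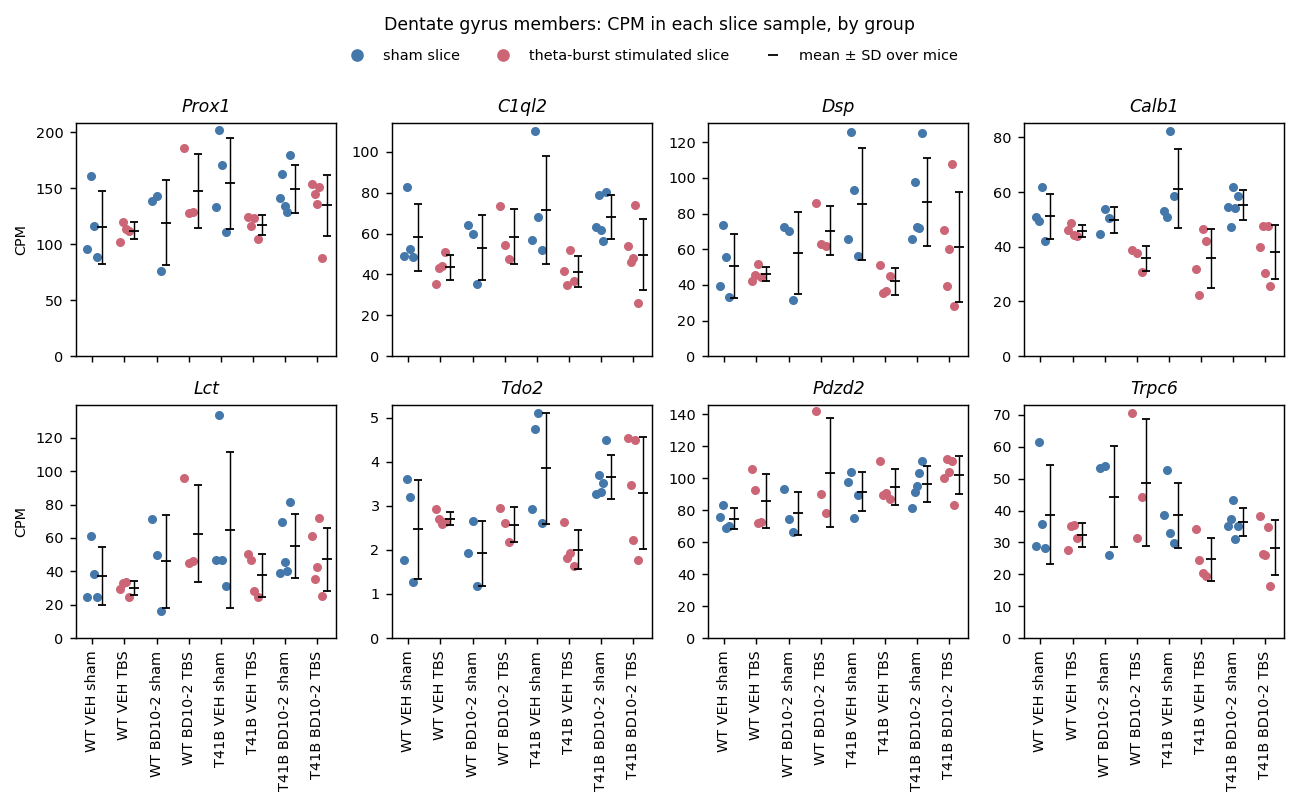
CPM (y axis, linear from 0) of the 8 dentate gyrus members in each of the 32 slice samples, by group (x axis). Points are samples, blue for sham and red for stimulated slices, and bars are the mean ± SD over mice. Lct in the T41B VEH sham group runs from 31 to 134 CPM, and the 4 stimulated samples beside it from 24.7 to 50.4 CPM.

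Taken as deviations from the group means of log2(CPM + 1) over the 32 samples, the 28 pairs of dentate members had a median Pearson's r of 0.72, and 27 of 28 were positive. Prox1 went with C1ql2 at an r of 0.89, with Lct at 0.88, with Dsp at 0.86, with the cation channel gene Trpc6 at 0.84 and with Tdo2 at 0.83. It went less closely with Pdzd2 at 0.5 and with Calb1, the calcium buffer calbindin, at 0.27. Calb1 and Lct had an r of -0.04. Samples of a mouse share the animal and the batch, so these are descriptions.

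Genes of other regions did not form such blocks. The median r was 0.05 over the 6 pairs of CA3 genes, 0.02 over the 6 of CA2, 0.14 over the 6 of CA1 and 0.1 over the 10 of the thalamic list. Single pairs within a list could be close, with 0.7 for Pou3f1 and Mpped1 of CA1 and 0.67 for Bok and Cpne4 of CA3. In CA1 4 of 6 pairs were positive, and in CA3 3 of 6. Dentate and subiculum genes ran opposite ways, with a median r of -0.48 over 16 pairs. Prox1 had an r of -0.56 with fibronectin, Fn1, of -0.52 with the neuropeptide gene Nts, of -0.55 with Slc17a6, but of 0.56 with Prkcd of the same thalamic list, and of -0.66 with the calcium-binding protein Necab2. Nts and Fn1, the 2 subiculum genes, had an r of 0.59. The 4 highest r of pairs that crossed lists were 0.8 for Rgs14 of CA2 and Pou3f1 of CA1, 0.72 for Lct of the dentate gyrus and Prkcd, 0.71 for Bok of CA3 and Necab2 of CA2, and 0.69 for Fn1 and Lef1. The lowest was -0.78 for Lct and Necab2.

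**Figure D2:**
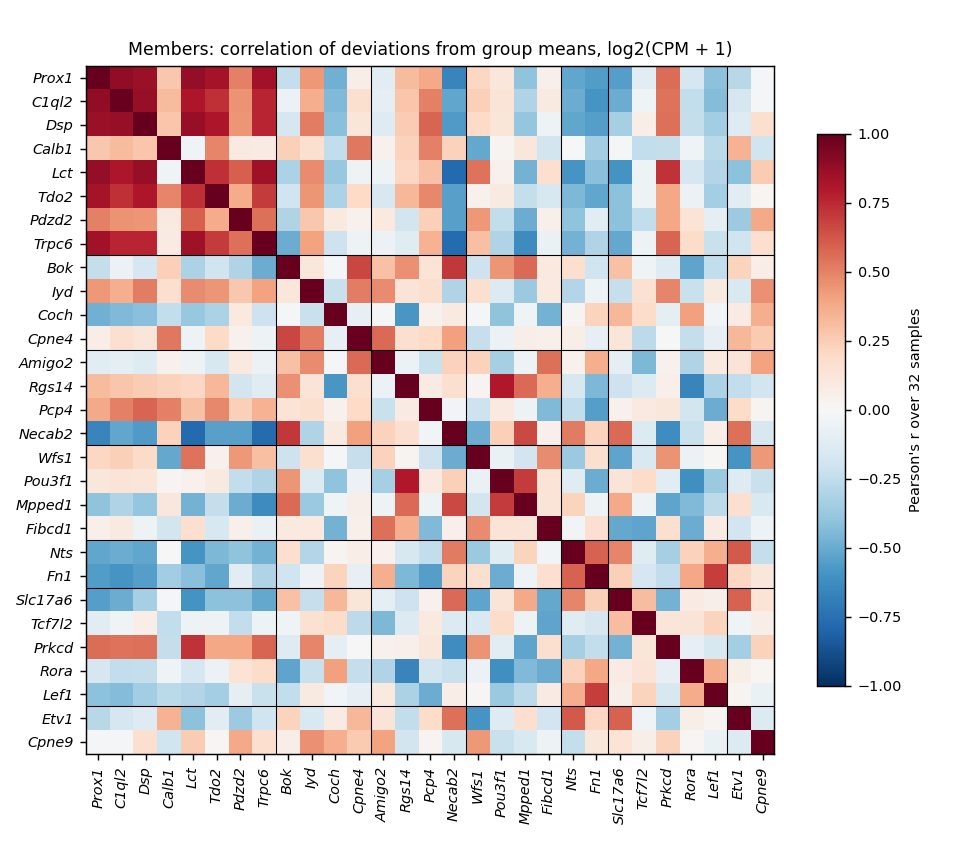
Pearson's r between members (both axes, ordered by region, regions divided by lines) of the deviations from group means of log2(CPM + 1) over 32 samples. Red is positive and blue negative, and the diagonal is each gene with itself. The dentate block at the upper left has a median r of 0.72, and the blocks of CA3, CA2, CA1 and the thalamic list have medians of 0.02 to 0.14.

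Single relations were tested apart in the 16 sham and the 16 stimulated samples, 12 relations in all, with permutation tests of 100000 resamples, two-sided. Prox1 and C1ql2 had a Pearson's r of 0.94 in sham slices (Spearman's rho 0.96) and of 0.86 in stimulated slices (rho 0.76). The permutation p for r was 1e-05 in sham and 2e-05 in stimulated slices, where 1e-05 is the smallest these resamples can give, and 0.00012 in both after adjustment over the 12. For rho the permutation p was 1e-05 in sham and 0.00096 in stimulated slices, adjusted 0.00012 and 0.00576. Without the 2 samples farthest from the median of Prox1, r was 0.93 and 0.72. Tcf7l2 and Prkcd had an r of 0.63 in sham slices (permutation p = 0.00976, adjusted 0.039) and a rho of 0.68 (permutation p = 0.00522, adjusted 0.0209), and r was 0.64 without 2 samples. In stimulated slices the r of Tcf7l2 and Prkcd was 0.41, with a permutation p of 0.118 and an adjusted p of 0.283, and rho was 0.39 (permutation p = 0.132, adjusted 0.321). The 16 samples pool 4 groups. In sham slices Prkcd averaged 16.1 and 18 CPM in the 2 WT groups and 25.7 and 26.2 CPM in the 2 T41B groups, and Tcf7l2 averaged 10.6 and 11.7 CPM against 12.4 and 12.8 CPM. As deviations from the group means over the 32 samples, the r of Tcf7l2 and Prkcd was 0.12, while that of Prox1 and C1ql2 was 0.89 as given above.

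Tcf7l2 and Slc17a6, both on the thalamic list, had an r of -0.21 in sham slices (rho -0.15) and of 0.02 in stimulated slices (rho 0.11), with permutation p of 0.412 and 0.949 for r and 0.578 and 0.68 for rho. The other 6 relations, of Prox1 with Wfs1 and Tcf7l2 and of Wfs1 with Tcf7l2, had r from -0.24 to 0.43 with adjusted permutation p from 0.283 to 0.898, and rho from -0.29 to 0.39 with adjusted permutation p from 0.321 to 0.867. Without the 2 samples farthest from the median, Wfs1 and Tcf7l2 moved from an r of -0.12 to -0.63 in sham and from -0.24 to -0.13 in stimulated slices. Prox1 and Tcf7l2 moved from 0.43 to 0.21 in sham slices and changed sign, from -0.19 to 0.38, in stimulated ones. Prox1 and Wfs1 changed sign in sham slices, from -0.06 to 0.12, and kept 0.36 in stimulated ones. A batch holds at most 4 sham and 4 stimulated libraries, too few for a correlation within it.

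Libraries of 1 mouse with equal labels could differ widely in the dentate genes. The first and second sham libraries of Mouse1565, a WT mouse on BD10-2, held 188 and 80.9 CPM of Prox1, 89.2 and 34.2 of C1ql2, 106 and 31.4 of Dsp and 112 and 21.6 of Lct. These rest on 5279 and 1809 reads for Prox1 and on 3156 and 484 for Lct. All 8 dentate genes were higher in the first library, with a median log2 ratio of 1.22. Slc17a6 (11.3 and 22.1 CPM), Fn1 (36.5 and 75.0), Necab2 (21.3 and 44.3) and Lef1 (2.49 and 5.37) were lower in it. In this pair 7 members differed by over 2-fold on the log2(CPM + 1) scale, against 1.62% of all genes.

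The other 3 pairs differed less. The first library had more of 8 of 8 dentate genes in the sham pair of Mouse1557, of 7 in the stimulated pair of Mouse1586 and of 6 in the stimulated pair of Mouse1592, with median log2 ratios of 0.34, 0.3 and 0.13. No pair agreed within sampling noise (chi-square over its degrees of freedom between 7.39 and 29.9), so no library was a copy of another. The labels do not say whether such libraries came from 1 slice or from 2.

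**Figure D3:**
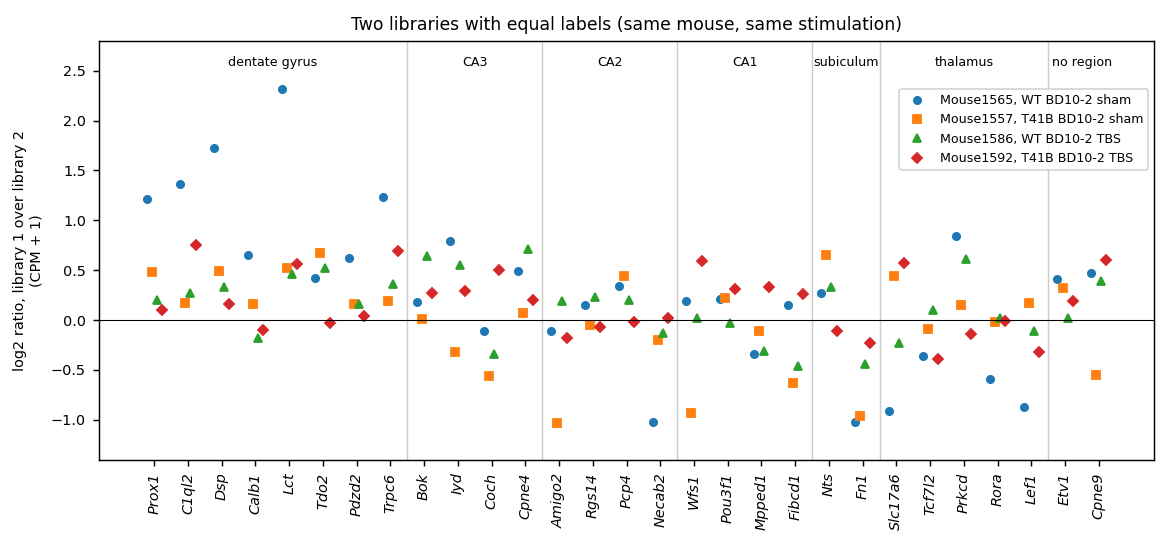
Log2 ratio of library 1 over library 2, on CPM + 1 (y axis), for the 29 tested members (x axis, by region) in the 4 pairs of libraries with equal labels. Each mark is a pair, and 0 means equal levels. Mouse1565 lies above 0 for all 8 dentate genes, up to 2.32 for Lct, and below 0 for Necab2, Fn1, Slc17a6 and Lef1, among others.

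Stimulated and sham slices were compared first as the mean over the 4 combinations of genotype and treatment, with edgeR's quasi-likelihood F test and, as the call, a Benjamini-Hochberg (BH) adjusted p under 0.05 over all genes. Of the 29 members 15 were called, 51.7%, and of all genes tested 46.8% were called, so the members' share was near the background. Stimulated slices were higher in 6 members (22.2% of all genes were) and lower in 9 (24.6% of all genes were). The members' median log2 fold change was -0.12, and that of all genes was -0.03. With neither the first stimulated Mouse1592 library nor the sham libraries of Mouse1565, the count was 15 as well, against 45.0% of all genes. With a replicate block by mouse it was 18, against 48.8%.

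By region, the calls among the dentate genes were 1 higher and 2 lower of 8, among CA3 genes 2 lower of 4, and among CA2 genes 1 higher and 1 lower of 4. In CA1 they were 2 higher of 4, in the subiculum 1 higher of 2, and in the thalamic list 1 higher and 2 lower of 5. Etv1 and Cpne9 were both lower. No region's members moved all one way with every member called, other than this last pair.

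Etv1 (GRCm38 chr12:38779380-38870484, plus strand), an ETS transcription factor best known from deep cortical projection neurons, was lower after stimulation in all 14 mice with both slices. In WT VEH mice it stood at 85.4, 87.2, 92.9 and 98.1 CPM in sham and 74.4, 74.4, 85.4 and 95.6 in stimulated slices. These values are in the same order of mice. In WT BD10-2 mice the values were 83.7, 102 and 95.6 in sham slices (Mouse1565, Mouse1571 and Mouse1590) and 57.4, 90.2 and 62.0 in stimulated slices (Mouse1565, Mouse1586 and Mouse1571). In T41B VEH mice they were 82.4, 46.5, 73.7 and 68.2 in sham and, in the same order of mice, 48.6, 34.0, 41.1 and 50.4 in stimulated slices. That drop was seen in each of the 4 mice. In T41B BD10-2 mice they were 72.7, 53.7, 79.1, 50.4 and 57.4 in sham slices (Mouse1557, Mouse1570, Mouse1563, Mouse1564 and Mouse1592) and 36.3, 37.4, 39.4, 45.0 and 36.7 in stimulated slices (Mouse1563, Mouse1570, Mouse1564, Mouse1592 and Mouse1572). In each WT BD10-2 and T41B BD10-2 list below, the mice are in these same orders, so values do not pair by position. The 5 stimulated values of the last group lay below all 5 sham values, and the 9 stimulated T41B samples, at 34.0 to 50.4 CPM, lay below every WT sample. The log2 fold change over the mean of the 4 was -0.47 (SE, the standard error, 0.08, edgeR BH-adjusted p = 2.01e-05), and by combination it was called in T41B VEH (-0.64, SE 0.16, edgeR BH-adjusted p = 0.00429) and T41B BD10-2 mice (-0.69, SE 0.14, edgeR BH-adjusted p = 0.000598).

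Nts (chr10:102481756-102490486, minus strand) encodes neurotensin, a neuropeptide of subicular neurons. Its level rose from a sham median of 2.04 CPM (0.197 to 2.85) to a stimulated median of 3.41 CPM (2.22 to 5.38), and it was higher in the stimulated slice of 13 of 14 mice. The log2 fold change over the mean of the 4 was 0.95 (SE 0.19, edgeR BH-adjusted p = 0.000217). In T41B VEH mice the values were 1.5, 0.197, 0.957 and 1.89 CPM in sham and 3.36, 3.41, 3.41 and 4.3 CPM in stimulated slices. The groups did not overlap, and the log2 fold change was 1.68 (SE 0.41, edgeR BH-adjusted p = 0.00309). Fn1, the other subiculum gene, was not called, with a log2 fold change of 0.04 (SE 0.13, edgeR BH-adjusted p = 0.841).

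Lef1 (chr3:131110471-131224356, plus strand), a nuclear partner of beta-catenin in Wnt signalling, was the 1 member called in WT mice. In WT VEH mice it stood at 4.27, 3.75, 6.35 and 5.66 CPM in sham and at 3.1, 3.03, 1.51 and 1.84 CPM in stimulated slices, with no overlap. The log2 fold change was -1.08 (SE 0.31, edgeR BH-adjusted p = 0.0197). In WT BD10-2 mice it stood at 3.74, 4.85 and 5.52 CPM in sham and at 1.34, 2.07 and 3.16 CPM in stimulated slices, again with no overlap (-1.12, SE 0.35, edgeR BH-adjusted p = 0.0442). The WT BD10-2 call was lost in the fit with a replicate block by mouse (edgeR BH-adjusted p = 0.108). Over the mean of the 4 the log2 fold change was -0.79 (SE 0.16, edgeR BH-adjusted p = 0.000151), and Lef1 was lower in the stimulated slice of 13 of 14 mice.

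Slc17a6 (chr7:51622006-51671119, plus strand) varied most. In T41B BD10-2 mice it stood at 23.8, 11.6, 14.3, 23.9 and 7.95 CPM in sham and at 0.847, 2.24, 6.23, 5.17 and 6.34 CPM in stimulated slices, with no overlap and a log2 fold change of -1.98 (SE 0.5, edgeR BH-adjusted p = 0.00402). In WT VEH mice the sham values of 12.3 to 26.4 CPM and the stimulated values of 8.43 to 20.9 CPM overlapped. Over the mean of the 4 the log2 fold change was -0.88 (SE 0.27, edgeR BH-adjusted p = 0.00886), and it was lower in 10 of 14 mice. Of the other thalamic members tested, Lef1 was lower as well, Prkcd, a protein kinase C isoform, was higher (0.3, SE 0.09, edgeR BH-adjusted p = 0.00913), the nuclear receptor Rora was called in T41B VEH mice (0.31, SE 0.09, edgeR BH-adjusted p = 0.0187), and Tcf7l2 had a log2 fold change of -0.03 (edgeR BH-adjusted p = 0.697). The Rora call in T41B VEH mice held in 11 of 15 alternatives. It was lost with library totals (edgeR BH-adjusted p = 0.0776) and with only the groups compared (edgeR BH-adjusted p = 0.0599). Over the mean of the 4 Rora was not called (0.11, edgeR BH-adjusted p = 0.0576). There it was called in 10 of 28 alternatives, the replicate block among them (edgeR BH-adjusted p = 0.00736).

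Of the dentate genes, Calb1 was lower, with 42.0 to 82.3 CPM in the 16 sham samples (median 53.6) and 22.4 to 48.8 CPM in the 16 stimulated ones (median 40.9), and a log2 fold change of -0.48 (SE 0.09, edgeR BH-adjusted p = 0.000112). C1ql2 was lower too (-0.38, SE 0.13, edgeR BH-adjusted p = 0.0138), and lower in 12 of 14 mice. The PDZ-domain gene Pdzd2 was higher (0.19, SE 0.08, edgeR BH-adjusted p = 0.0493), a call that held in 13 of 28 alternatives and was lost with library totals in place of TMM (0.13, edgeR BH-adjusted p = 0.186). Prox1 had a log2 fold change of -0.07 (edgeR BH-adjusted p = 0.599) and was lower in 9 of 14 mice. Dsp (-0.34, edgeR BH-adjusted p = 0.0797) and Trpc6 (-0.28, edgeR BH-adjusted p = 0.093) were not called, and with the replicate block both were (edgeR BH-adjusted p = 0.0354 and 0.0254). In all, Dsp was called in 4 and Trpc6 in 3 of 28 alternatives. In T41B mice C1ql2, Dsp and Trpc6 were higher in the stimulated slice of 0 of 8 pairs, and in WT mice of 2, 3 and 2 of 6 pairs. For Dsp, the difference of the effect between genotypes had an edgeR BH-adjusted p of 0.403, and none of the 3 was shown to differ.

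Pcp4 (chr16:96467606-96525793, plus strand) was lower in stimulated slices of T41B mice: 26.1, 32.6, 41.3 and 35.3 CPM in T41B VEH sham and 21.2, 15.2, 16.3 and 21.7 CPM in T41B VEH TBS samples, with no overlap. The log2 fold change there was -0.86 (SE 0.17, edgeR BH-adjusted p = 0.000293). In WT VEH mice the sham mean was 25.6 ± 1.52 CPM and the stimulated mean 22 ± 4.1 CPM (SD, n = 4 each), and in WT BD10-2 mice the means were 22.1 ± 1.9 and 23.8 ± 3.54 CPM (SD, n = 3 each). The test of the difference between genotypes in this effect gave an edgeR BH-adjusted p of 0.185.

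Among CA genes, Fibcd1, a chitin-binding receptor of CA1 cells, was higher over the mean of the 4 (0.26, SE 0.08, edgeR BH-adjusted p = 0.00672), and so was the POU transcription factor Pou3f1 (0.32, SE 0.1, edgeR BH-adjusted p = 0.00903). Sham slices held 66.4 to 146 CPM of Fibcd1 (median 99.4) and stimulated slices 84.5 to 166 CPM (median 120). Both groups of slices overlapped over most of that range. Wfs1 (0.04) and Mpped1 (-0.06), the other 2 CA1 genes, were not called (edgeR BH-adjusted p = 0.83 and 0.454). Rgs14, a scaffold that limits plasticity in CA2, was higher (0.24, SE 0.09, edgeR BH-adjusted p = 0.0225). Cpne4 (-0.22, SE 0.08, edgeR BH-adjusted p = 0.0195) and Coch (-0.75, SE 0.27, edgeR BH-adjusted p = 0.0242) of CA3 were lower. Coch was at 0.247 to 2.48 CPM, and its call was lost with the replicate block (edgeR BH-adjusted p = 0.0903). Necab2 of CA2 was not called (-0.36, SE 0.15, edgeR BH-adjusted p = 0.0506) and was lower in 10 of 14 mice. It was called lower with the replicate block (-0.33, edgeR BH-adjusted p = 0.0185) and in 13 of 28 alternatives in all. The calcium-binding protein Cpne9 was lower (-0.32, SE 0.13, edgeR BH-adjusted p = 0.0483), and had -0.22 without the sham libraries of Mouse1565 (edgeR BH-adjusted p = 0.166). The Cpne9 call held in 12 of 28 alternatives.

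**Figure D4:**
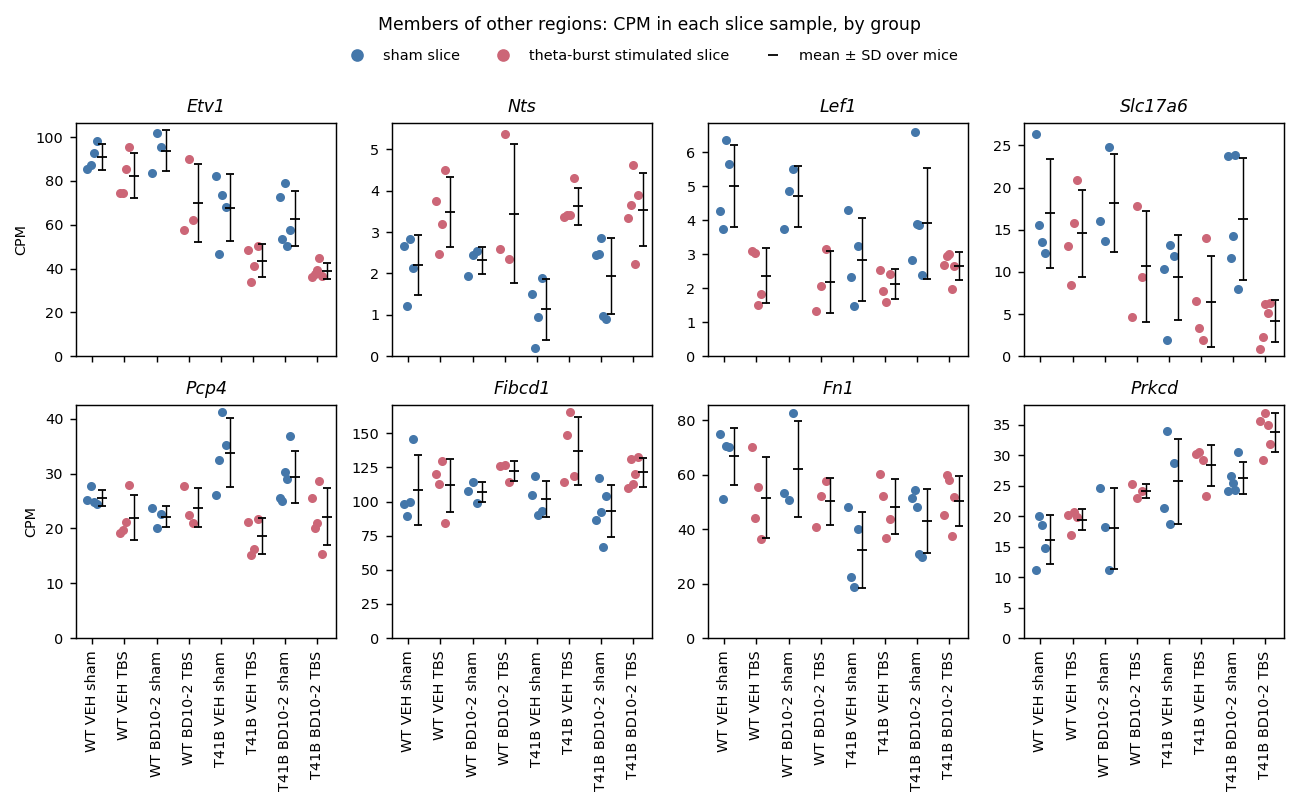
CPM (y axis, linear from 0) of 8 members outside the dentate gyrus in each of the 32 slice samples, by group (x axis). Points are samples, blue for sham and red for stimulated, and bars are the mean ± SD over mice. Etv1 in T41B BD10-2 mice lies at 50.4 to 79.1 CPM in sham and at 36.3 to 45.0 CPM in stimulated slices, and Fn1 in the same mice overlaps.

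By combination of genotype and treatment the counts were lower. In WT VEH mice 1 of 29 members was called against 12.3% of all genes (8.21% higher and 4.1% lower), and it was Lef1, lower. In WT BD10-2 mice 1 of 29 was called against 8.87% of all genes (6.29% higher and 2.58% lower), again Lef1. In T41B VEH mice 9 of 29 were called, 31% against 21.6% of all genes (11.7% higher and 9.83% lower): Nts, Fibcd1 and Rora higher, and Etv1, Tdo2, Calb1, C1ql2, Dsp and Pcp4 lower. In T41B BD10-2 mice 5 were called, 17.2% against 22.9% of all genes (13.3% higher and 9.54% lower): Fibcd1 higher, and Etv1, Calb1, Slc17a6 and Pcp4 lower. With the replicate block the WT VEH count was 4 (Rgs14 and Pou3f1 higher, Lef1 and Cpne9 lower) against 20% of all genes in that fit, and the 1 member called in WT BD10-2 mice was Etv1, against 6.6%. In T41B VEH mice, where the block called 12 members against 29.5% of all genes, it called Fn1 higher and Prox1, Trpc6 and Cpne4 lower besides, and lost Fibcd1 (edgeR BH-adjusted p = 0.0624). In T41B BD10-2 mice, with 5 members against 23.9% of all genes, it lost Fibcd1 (edgeR BH-adjusted p = 0.142) and Pcp4 (edgeR BH-adjusted p = 0.0667) and called Nts and Rgs14 higher.

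Stimulated and sham slices did not overlap in 2 members in WT VEH mice (Pou3f1 higher, Lef1 lower), against 16.1% of all genes. They did not overlap in 5 members in WT BD10-2 mice (Lef1, Calb1, Rora, Cpne4 and Amigo2, all lower), against 32.9% of all genes. In T41B VEH mice the number was 5 (Nts and Rora higher, Calb1, Dsp and Pcp4 lower) against 20.4%, and in T41B BD10-2 mice 2 (Etv1 and Slc17a6, lower) against 15.3%. Rora was thus lower without overlap in one combination and higher in another. The remaining members were called in none of these comparisons in the fit without the block: Prox1, Lct, Bok, Amigo2, Necab2, Trpc6, Wfs1, Mpped1, Fn1, Tcf7l2 and Iyd, an enzyme that recovers iodide (-0.14 over the mean of the 4, SE 0.15).

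The T41B VEH count moved with 2 mice. Without Mouse1551 it was 4 (Nts, Etv1, Calb1 and Pcp4) against 13.6% of all genes, and without Mouse1553 it was 5 (the same 4 and C1ql2) against 14.7%. C1ql2 there had a log2 fold change of -0.8 (SE 0.25, edgeR BH-adjusted p = 0.0213), and of -0.44 without Mouse1551 (edgeR BH-adjusted p = 0.299), whose sham sample was the highest of the group at 110 CPM. Dsp had -1.01 (SE 0.32, edgeR BH-adjusted p = 0.021), and -0.69 without Mouse1551 (edgeR BH-adjusted p = 0.219). The T41B BD10-2 count was 2 (Etv1 and Slc17a6) without Mouse1563 or without Mouse1564, against 19.2% and 16.4% of all genes, and 3 without Mouse1572 (both and Coch), against 19.5%. Lef1 was not called in WT VEH mice without Mouse1522 or Mouse1524, nor in WT BD10-2 mice without any one of the 4 mice.

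**Figure D5:**
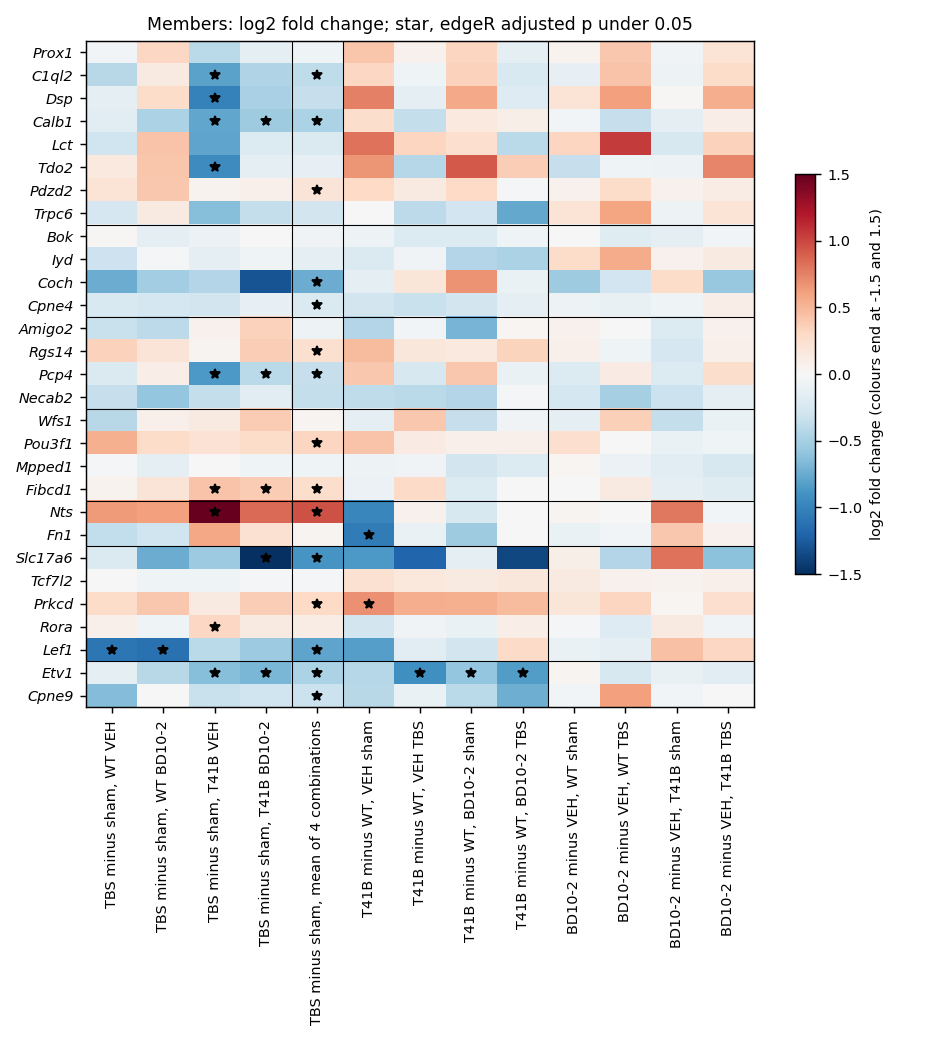
Log2 fold changes of the 29 tested members (rows, by region) in the stimulation, genotype and treatment comparisons (columns). Red is higher and blue lower in the first-named group, colours end at -1.5 and 1.5, and a star marks an edgeR BH-adjusted p under 0.05. Etv1 has stars in 3 of 4 genotype comparisons, and no treatment comparison has a star.

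Other cell types' markers moved with stimulation too, and their part in the members' results was not tested. All 5 microglial genes were lower, with summed levels of 197 to 665 CPM in sham and 80.1 to 346 CPM in stimulated slices. Of 5 neuronal genes 4 were lower (summed 3020 to 4270 CPM in sham, 2200 to 3880 in stimulated) and 4 of 5 interneuron genes were lower. Of 5 astrocyte genes 4 were higher (5800 to 8330 CPM in sham, 6510 to 11000 in stimulated), and 2 of 4 endothelial genes were. Of 7 neocortical genes 6 were lower and 1 higher, with a median log2 fold change of -0.69 over the mean of the 4 and of -1.07 in T41B BD10-2 mice. Their summed levels were 90 to 226 CPM in sham and 93.8 to 191 CPM in stimulated slices, a sum that includes Rorb, the 1 that was higher (means of 52.1 and 68.5 CPM), named after its values were seen. Of 4 ependymal genes 2 were lower over the mean of the 4, and 3 of 4 in T41B VEH mice (median log2 fold change -1.26), with summed levels of 7.74 to 34.5 CPM in sham (median 15.5) and 9.24 to 20.1 CPM in stimulated slices (median 12.6). Choroid plexus genes were called in neither direction over the mean of the 4, but in WT VEH mice 8 of 8 were higher, with a median log2 fold change of 4.27. In that combination they summed to 14.1 to 1220 CPM in stimulated (median 509) and 15.7 to 20.5 CPM in sham slices. The lowest stimulated slice was thus below every sham slice, and the rise was not shared by all 4 mice. Over all groups they summed to 14 to 1220 CPM in stimulated slices (median 20.5) and 14.7 to 530 in sham slices (median 21.2), the highest in WT VEH TBS. The most abundant of them, Ttr, ran from 0 to 1070 CPM, with a median of 0.646 CPM.

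Further markers of the same regions gave mixed counts. Of 7 further dentate genes 1 was higher and 3 lower, among them the transcription factor gene Glis3, higher (0.79, edgeR BH-adjusted p = 3.46e-10), and C1ql3 (-0.5, edgeR BH-adjusted p = 1.3e-05) and Stxbp6 (-0.54, edgeR BH-adjusted p = 0.000627), lower. Of 6 further CA3 genes 3 were lower (Elavl2 -0.59, Prss35 -0.55 and Grik4 -0.21), of 3 CA2 genes 1 was higher (Cacng5 0.19), of 6 CA1 genes 1 was higher (Man1a 0.17) and of 4 subiculum genes 1 was lower (Ly6g6e -0.68). Of 8 further thalamic genes tested, 3 were higher and 3 lower. These included Rgs16, a G-protein regulator, which was higher (log2 fold change 1.81, SE 0.1, edgeR BH-adjusted p = 8.33e-15), and Calb2, calretinin, and Lhx9, which were lower (-1.19 and -0.47, SE 0.23 and 0.09, edgeR BH-adjusted p = 8.26e-05 and 0.000118). The most abundant further thalamic gene, Plekhg1, had 0.19 (edgeR BH-adjusted p = 0.0856). Of 3 habenula genes 1 was lower, Nwd2 (-0.54, edgeR BH-adjusted p = 4.05e-05).

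T41B and WT mice were compared within each treatment and stimulation. Etv1 was lower in T41B mice in all 4 comparisons, without overlap between the groups in any. The log2 fold change was -0.92 in VEH TBS slices (SE 0.16, edgeR BH-adjusted p = 0.000311), -0.84 in BD10-2 TBS slices (SE 0.16, edgeR BH-adjusted p = 0.000478) and -0.58 in BD10-2 sham slices (SE 0.16, edgeR BH-adjusted p = 0.0289). In VEH sham slices it was -0.43 and was not called. In the batches with both genotypes, T41B minus WT was negative in all 7 combinations of batch and stimulation, from -0.91 to -0.17 on the log2(CPM + 1) scale. Batches A, C and D had 1 mouse of each genotype in these, and batch I had 2 WT and 1 or 2 T41B mice. Mice recur in both stimulations, so the 7 are not independent. The BD10-2 sham call was lost without Mouse1564, Mouse1570, Mouse1571, Mouse1590 or Mouse1592.

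Other cell types' markers moved with genotype too, and their part in the genotype differences of the members was not tested. Of 5 microglial genes 4 were higher in T41B mice in VEH sham, 2 in VEH TBS, 3 in BD10-2 sham and 5 in BD10-2 TBS slices, with summed levels of 80.1 to 269 CPM in WT and 180 to 665 CPM in T41B samples. Of 5 astrocyte genes 2, 2, 2 and 4 were higher in the same order (5900 to 8090 CPM in WT, 5800 to 11000 in T41B). Of 5 interneuron genes 0, 2, 3 and 0 were lower (187 to 292 CPM in WT, 126 to 211 in T41B), and of 5 neuronal genes 1, 1, 0 and 0 were. Of 8 choroid plexus genes 1 was higher in VEH sham and 2 lower in VEH TBS slices.

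Etv1 was the 1 member called in VEH TBS slices, against 5.79% of all genes (4.74% higher and 1.05% lower). It was also the 1 called in BD10-2 sham slices, against 5.46% (4.31% higher and 1.14% lower), and in BD10-2 TBS slices, against 10.6% (8.19% higher and 2.36% lower). The genotypes did not overlap in 2 members in VEH sham (Etv1 and Fn1, lower) against 9.58% of all genes, and in 2 in VEH TBS slices (Prkcd higher, Etv1 lower) against 11.1%. In BD10-2 sham slices the number was 6 (Tdo2 and Pcp4 higher, Etv1, Cpne4, Mpped1 and Amigo2 lower) against 17.7%, and in BD10-2 TBS slices 4 (Prkcd and Rgs14 higher, Etv1 and Cpne9 lower) against 14.8%.

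In VEH sham slices 2 of 29 members were called against 6.24% of all genes (5.0% higher and 1.24% lower), Fn1 lower and Prkcd higher. Fn1 stood at 74.9, 51.2, 70.4 and 70.3 CPM in WT and at 48.3, 22.4, 18.7 and 39.9 CPM in T41B slices, with no overlap (-1.05, SE 0.26, edgeR BH-adjusted p = 0.0107). Prkcd stood at 11.1, 20.1, 18.5 and 14.8 CPM in WT and at 21.3, 34.0, 18.7 and 28.8 CPM in T41B slices, which overlapped (0.68, SE 0.18, edgeR BH-adjusted p = 0.0242). Both calls were lost with batch as a covariate (edgeR BH-adjusted p = 0.224 and 0.361) and without Mouse1551 (edgeR BH-adjusted p = 0.0757 and 0.169). Fn1 was lost without Mouse1553 too (edgeR BH-adjusted p = 0.0632), and Prkcd without Mouse1509, Mouse1524 or Mouse1579. Without Mouse1510 the count was 7 (Prkcd, Rgs14 and Pou3f1 higher, Etv1, Fn1, Lef1 and Rora lower), against 10.6% of all genes in that fit. In the 4 batches with sham slices of both genotypes, of either treatment, T41B minus WT ran from -1.45 to 0.06 for Fn1 and from 0.19 to 1.37 for Prkcd on the log2(CPM + 1) scale. Each of these batches had sham slices of 1 T41B mouse and of 1 or 2 WT mice. Over the 32 samples Prkcd had an r of 0.56 with Prox1, and Fn1 an r of -0.56 with it, and Prox1 in these groups was 88.2 to 161 CPM in WT and 111 to 202 CPM in T41B slices. The part of the dentate level in the 2 differences was not tested.

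BD10-2 and vehicle were compared within each genotype and stimulation, and since no batch has mice of both treatments, the drug and the batch cannot be told apart. By edgeR 0 of 29 members and 0.0% of all genes were called in each of the 4 comparisons, and DESeq2 called 0 members as well. At an unadjusted p under 0.05 the members numbered 0 in WT sham, 3 in WT TBS, 0 in T41B sham and 2 in T41B TBS slices, against 1.92%, 5.61%, 2.21% and 3.9% of all genes by edgeR. The 3 were Lct (log2 fold change 1.05, edgeR BH-adjusted p = 0.881), Cpne9 (0.62) and Trpc6 (0.59). In WT TBS slices Prox1 stood at 102, 120, 114 and 112 CPM with vehicle and at 186, 128 and 129 CPM with BD10-2. These did not overlap. In WT TBS slices 7 members did not overlap between treatments (Prox1, Prkcd, Lct, Cpne9 and Dsp higher, Calb1 and Rora lower), against 6.74% of all genes, and in WT sham slices 1 (Pcp4, lower) against 3.52%. In T41B mice 0 members did not overlap, in sham slices against 0.76% and in TBS slices against 1.16% of all genes.

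The effect of stimulation was also compared between genotypes and between treatments. By edgeR 0 members were called in either test, against 0.195% and 0.0% of all genes. DESeq2 called 0 in both. At an unadjusted p under 0.05, 7 of 29 members differed between genotypes, against 9.19% of all genes, and 1 between treatments, against 1.46%, both by edgeR. The 7 were Pcp4, Fn1, Tdo2, Dsp, Amigo2, Etv1 and Rora, and Pcp4 had the smallest p (log2 difference -0.58, SE 0.17, edgeR BH-adjusted p = 0.185). So calls in T41B mice that are missing in WT mice were not shown to differ between the genotypes.

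The genes most like 3 members were found by Pearson's r of deviations from group means over the 32 samples, among 16192 genes averaging at least 1 CPM. For Prox1 they were Fam163b (0.92), Vwa3b (0.9), Btbd3 (0.9), Dock10 (0.9) and C1ql2 (0.89), of which C1ql2 is a member and Dock10 is on the further dentate list. For Wfs1 they were the serotonin receptor gene Htr1b (0.83), Nell1 (0.81), Arel1 (0.79), the muscarinic receptor gene Chrm3 (0.78) and Slc25a14 (0.78). For Tcf7l2 they were Chn2 (0.77), Fgd3 (0.76), Fnbp1 (0.75), 2810468N07Rik (0.74) and Etnppl (0.73), none of them on the thalamic lists.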

How the data were processed

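The authors deposited RSEM expected counts per gene, estimated read counts that are not scaled between libraries. Per the submitters' processing notes the tools were cutadapt 1.8.1, STAR 2.7.6a, RSEM 1.3.1, featureCounts 1.6 and SAMtools 1.11, and the build was GRCm38. The annotation release and strand setting are not given in the sources used here, so overlapping and antisense genes are uncertain. Per the labels' protocols, libraries were stranded and ribosomal RNA was depleted. The table's identifiers were matched to symbols for 55154 of 55421 genes. Expected counts were rounded, libraries with equal labels added, and genes filtered by edgeR 4.0.16 (filterByExpr, minimum count 10). TMM scaling and the quasi-likelihood F test were used in 1 fit over 8 groups, with Benjamini-Hochberg adjustment over 19478 genes. Deviations are from group means of log2(CPM + 1). The fit was tested on simulated data. Alternatives were DESeq2 1.42.0, other scaling, no filter, only the groups compared, the first library of each equal-label pair, a replicate block, batch, and leaving out mice or libraries, of which those leaving out libraries were chosen after seeing the data. Slices are paired by the mouse in the labels: deviations of the 2 slices of a mouse had a mean correlation of 0.29 over 14 pairs, with 13 over 0.1, and slices of different mice one of -0.094 over 38 pairs. Deviations sum to 0 within a group, which pulls the second mean below 0 when the first is above it. The second mean is therefore no independent baseline. The rule for named genes took all members, up to 3 called genes of a further list with the smallest adjusted p (for thalamus, habenula and choroid plexus also the most abundant gene), and the 5 nearest genes of 3 members. Neocortical and other cell types' lists are given as counts and summed levels, and Rorb and the levels of all 9 further thalamic and 5 habenula genes were added after their values were seen. The members and lists were chosen with earlier results of these data known.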

Additional observations from a re-analysis of the deposited data

Results flagged for a closer look

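In groups of 4 or 5 mice, 180 sets of a member in a group were looked at, and in 9 of them the highest or lowest sample stood far from its nearest neighbour. Chance alone flags about 1 in 20 such sets, which 9 of 180 does not exceed. Among dentate genes, Prox1 was lowest at 87.9 CPM in the stimulated T41B BD10-2 slice of Mouse1572, where the next was 136 CPM. C1ql2 was highest at 82.6 CPM in the WT VEH sham slice of Mouse1513, where the next was 52.4 CPM. Lct was highest at 134 CPM in the T41B VEH sham slice of Mouse1551, against 46.8 CPM. Pdzd2 was highest at 111 CPM in the stimulated T41B VEH slice of Mouse1510, against 90.6 CPM.

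In the stimulated T41B VEH slice of Mouse1579, Nts was highest at 4.3 CPM (next 3.41) and Prkcd lowest at 23.3 CPM (next 29.3). Tcf7l2 was highest at 15.4 CPM in the T41B BD10-2 sham slice of Mouse1564 (next 12.6). Gbx2 was at 0.0551 CPM in the stimulated WT VEH slice of Mouse1513 and at 0.103 CPM in the T41B BD10-2 sham slice of Mouse1557, with the other slices of those groups listed at 0. Gbx2 did not pass the count filter, and its Mouse1557 value rests on 1 and 3 reads in the 2 libraries. These flags are steps just above 0.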

How the results depend on the processing

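No called result changed sign under any alternative run. Uncalled values near 0 could do so: over the mean of 4 combinations Wfs1 (log2 fold change 0.04) was -0.01 and Fn1 (0.04) was -0.03 with library totals and no TMM, and Fn1 was -0.01 without Mouse1551 and -0.02 without Mouse1571. Single members kept their side of the threshold in 1016 results, lost the call in 106 and gained it in 30, and no correlation moved with a pseudocount of 0.1. The cause was not tested. Over the mean of 4 combinations Etv1, Nts, Prkcd, Fibcd1, Lef1, Calb1, Slc17a6, Pou3f1 and Pcp4 were called in all 28 alternatives, and the number of members called was 13 to 18.

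The number of members called moved as follows. Of 46 counts that moved by over 1.5 times, those without 1 mouse included, the share of all genes called moved the same way in 35. With the replicate block, stimulation gave 4 in WT VEH mice, against 1, 12 in T41B VEH mice, against 9, and 18 over the mean, against 15. With batch as a covariate it was 3 in WT VEH mice (16.6% of all genes in that fit), and the VEH sham genotype count was 0 (1.81%), against 2. With only the groups compared, stimulation gave 2 in WT VEH (8.99% of all genes) and 2 in WT BD10-2 mice (11.4%). Genotype in those fits gave 0 in VEH sham (3.08%), 2 in VEH TBS (4.57%), 3 in BD10-2 sham (9.58%) and 2 in BD10-2 TBS slices (6.72%). In WT VEH, VEH TBS and BD10-2 TBS the member count rose while the share of all genes fell, from 12.3%, 5.79% and 10.6%. With the first library of equal labels, stimulation gave 0 in WT BD10-2 mice (7.11% of all genes), and genotype 1 in VEH sham (4.83%) and 2 in BD10-2 sham slices (6.4%). Without the count filter stimulation gave 0 in WT BD10-2 mice (3.55%). DESeq2 gave 8 for stimulation in T41B BD10-2 mice, where the share of all genes was a little above the 22.9% of the main fit. For genotype DESeq2 gave 2 in VEH TBS (6.94% of all genes) and 3 in BD10-2 sham slices (8.41%). Genotype gave 2 in VEH TBS (5.53% of all genes) and 2 in BD10-2 sham slices (3.04%) without the sham libraries of Mouse1565. The counts were the same without these and the Mouse1592 library (5.86% and 3.38%). In the main fit the shares were 5.79% and 5.46%. In BD10-2 TBS slices genotype gave 3 without the Mouse1592 library (12.1%) and 3 without all 3 libraries (11.4%).

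Leaving out each mouse gave 0 to 1 for stimulation in WT VEH and 0 to 1 in WT BD10-2 mice, 4 to 9 in T41B VEH and 2 to 6 in T41B BD10-2 mice. At the lowest counts the share of all genes was 8.16% and 8.84%, 3.82% to 4.6%, 13.6%, and 16.4% and 19.2%, in this order. For genotype, leaving out mice gave 0 to 7 in VEH sham, 0 to 2 in BD10-2 sham and 1 to 2 in BD10-2 TBS slices. The share was 2.86% at 0 and 10.6% at 7 in VEH sham slices. In BD10-2 sham slices it was 2.44% to 4.58% at 0 and 2.91% at 2 without Mouse1565, and in BD10-2 TBS slices 8.41% to 12.6% at 2. Gbx2, Coch, Iyd, Nts, Tdo2 and Lef1 have medians under 3 CPM, where few reads limit the precision. Groups of 3 to 5 mice limit the rest.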
